A study of Homo sapiens with 3 samples.

Results

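FGFR1 encodes fibroblast growth factor receptor 1, a tyrosine kinase of the cell surface. Its skipped exons were taken from 2 deposited exon-skipping tables as every row that carries the symbol FGFR1 (ENSG00000077782). These were 18 of 40702 rows in the table of the library coded RS2 and 19 of 42518 rows in that of RS3, and in both tables they described the same 12 exons. Among them is the first-loop exon, which encodes the first immunoglobulin-like loop of the receptor and spans 89 codons. The gene was selected on the deposited differences and false discovery rates of this exon, which passed a threshold in both tables, so its own values are a description and carry no test.

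The samples were 3 libraries of the established human fibroblast line BJ, derived from foreskin. Cells were collected 8 days after induction of virally delivered OSKM, the set of reprogramming factors that comprises MYC, KLF4, SOX2 and OCT4. All 3 cultures thus carried OSKM, and they differed in the siRNA received: non-targeting (genotype WT), SMAD3 (SMAD3 Knock-down) or SFRS11 (SFRS11 Knock-down, current symbol SRSF11). Each group had 1 library and no replicate, so a difference between libraries cannot be told apart from the spread between cultures. Each table compared RS2 or RS3 with the comparator, a library that both tables share. No label ties these 3 codes to a siRNA, so no direction below can be assigned to a knockdown. Depth per event is unknown.

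An FGF receptor has an extracellular part with up to 3 immunoglobulin-like loops, a single membrane-spanning helix and an intracellular tyrosine kinase. FGF ligands bind, together with heparan sulfate, to the second and the third loop, and the receptor then dimerizes and signals through the docking protein FRS2 to the RAS and MAP kinase cascade. The first loop and the acidic stretch after it (the acid box) are known to hold the receptor in an autoinhibited state by competing for the ligand and heparan sulfate sites. Receptors that keep the first loop are called the alpha form and those that lack it the beta form, which binds FGF more tightly. Fibroblasts depend on FGF receptor signalling for growth, and human pluripotent cells are cultured in basic FGF.

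The first-loop exon lies on the minus strand of chromosome 8 at 38287200 to 38287466 (hg19, counted from 1). Its length is a multiple of 3, equal to 89 codons, so skipping it keeps the reading frame. In GENCODE release 29, which is built on another assembly and was matched only by exon length and by the spacing between exons, the same exon is fully coding in each of the 11 transcripts that hold it. It is the second coding exon in 8 protein-coding transcripts and the third in 1. Of 18 protein-coding FGFR1 transcripts that span its position, 9 hold it and 9 skip it. The choice between the alpha and beta forms is thus an annotated one.

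Inclusion of the first-loop exon was lower than in the comparator in both libraries, in 1 of its 3 rows per table. Inclusion level is the share of transcripts over the exon that keep it, and a difference of -1 would mean a change from always to never. The authors' deposited table for RS2 gave a difference of -0.128 with a p-value of 2.88e-12 and a false discovery rate (FDR) of 1.07e-08. The authors' deposited table for RS3 gave -0.196, with both p-value and FDR listed as 0. Both differences passed the rule for a call, which was a deposited FDR under 0.05 and an absolute difference of at least 0.1. These p-values come from reads of 2 libraries and compare those libraries, not the conditions.

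The exon was listed in 3 rows of each table, and only 1 row per table was called. The other rows had small positive differences or none: 0.012 and 0 for RS2 per the authors' deposited table, each at an FDR of 1. For RS3 they were 0.017 and 0.009 per the authors' deposited table, again at an FDR of 1. Rows of 1 exon must differ in something other than the exon itself, and the tables do not list it, so which exons the called row joins is unknown. The lower inclusion thus rests on 1 of 3 rows, and the median over its rows was 0 in RS2 and 0.009 in RS3. Such a split was common among called exons. Of 13 exons with a call and several rows in RS2, 9 had another row under 0.05 in size and 2 had all rows called. In RS3, 112 of 168 such exons had another row under 0.05 and 6 had all rows called.

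Of the FGFR1 rows, 1 of 18 in RS2 and 1 of 19 in RS3 were called, both lower. Over all events, 0.0442% were called lower in RS2 and 0.736% in RS3, and 0.0712% and 0.967% were called in either direction. Under a stricter rule, an FDR below 0.01 with a difference of 0.2 or more, 0 FGFR1 rows were called in either table, against 0.0172% and 0.289% of all events. Since the gene was chosen for these calls, nothing is read from the contrast. The called RS2 row had the eleventh smallest p-value of its table. In RS3 it was among 50 rows that shared the smallest listed p-value. Among the called losses its RS2 value was one of the smallest in size, since 16 of 18, its own row included, lay at or below it, and their median was -0.169. In RS3 it lay at the median of the 313 called losses, -0.196.

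**Figure D1:**
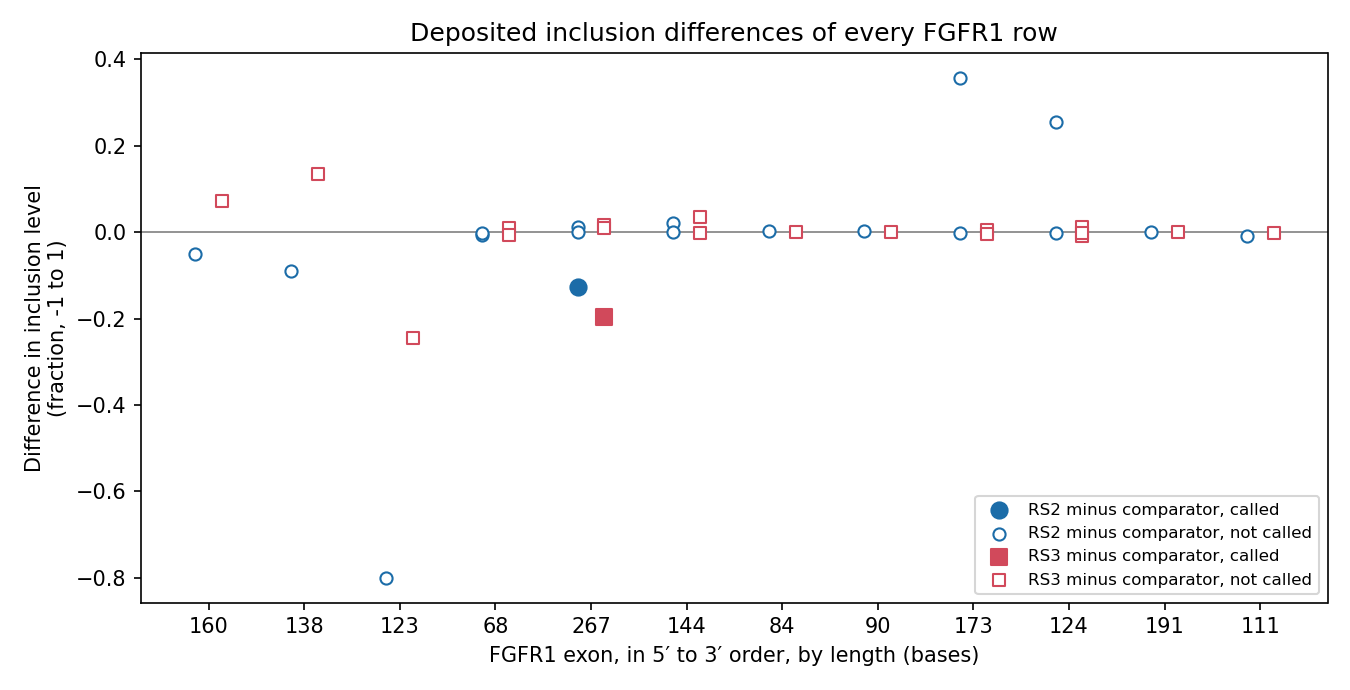
Difference in inclusion level (fraction, RS2 or RS3 minus the comparator) for every FGFR1 row, with the 12 exons in 5′ to 3′ order on the x axis labelled by length in bases. Circles are RS2 and squares RS3, and filled symbols are called rows. The only filled symbols are those of the first-loop exon, the fifth from the left, at -0.128 and -0.196, and large open symbols lie at the 123-base exon and, in RS2 only, at the 173- and 124-base exons.

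The plot of differences by exon order shows how the rest of the gene behaved. Upstream of the first-loop exon lie 4 listed exons, at distances of 10357 to 31147 bases from it. The 68-base exon (38297824 to 38297891) differed by at most 0.01 in size, with rows of -0.006 and -0.001 in RS2 per the authors' deposited table. Its RS3 rows per the authors' deposited table were 0.01 and -0.007. This exon is held by 1 GENCODE transcript, and its length is no multiple of 3.

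The other upstream exons lie farther away and varied more, with no call. The 138-base exon (38316365 to 38316502) differed by -0.089 in RS2 and 0.135 in RS3 per the authors' deposited table, at FDRs of 1 and 0.989. A 123-base form of it shares its start coordinate (38316365 to 38316487) and differed by -0.8 in RS2 and -0.245 in RS3 per the authors' deposited table, each at an FDR of 1. These were the most negative FGFR1 differences of each table, beyond the called row. Size alone did not go with a call elsewhere either: of 1470 RS2 events with a difference of at least 0.5 in size, 0 were called, and 15 of 1466 were in RS3. The 160-base exon (38318614 to 38318773), the farthest upstream, differed by -0.05 and 0.071 per the authors' deposited table, at an FDR of 1 in both comparisons. No upstream exon was annotated as fully coding.

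Between the first-loop exon and the acid box exon lies a 144-base exon (38286765 to 38286908), 291 bases downstream. It is held by 2 GENCODE transcripts, none of them of the protein-coding type. Its rows were 0.001 and 0.021 in RS2 per the authors' deposited table, both at an FDR of 1. In RS3 they were 0.035 and -0.001 per the authors' deposited table, and 0.035 had an FDR of 0.7, the lowest of any uncalled FGFR1 row in either table.

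The exon that follows was listed in a 90-base form (38285864 to 38285953) and an 84-base form (38285870 to 38285953). On the minus strand they differ at the downstream end of the exon, which is the lower coordinate. Both keep the frame, as 30 and 28 codons. It encodes the acid box region between the first and the second loop. Differences in skipping were near 0 for both forms: they were, per the authors' deposited table, 0.003 and 0.002 in RS2 and 0 for both in RS3. The choice between the 90-base and 84-base forms is another kind of event and is not measured by these rows.

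The 173-base exon (38285439 to 38285611) and the 124-base exon (38283640 to 38283763) encode the second loop, which binds ligand. Skipping either alone shifts the frame. The 173-base exon had RS2 rows of -0.002 and 0.357 per the authors' deposited table, with p-values of 1 and 0.26. In RS3 its rows were -0.005 and 0.004 per the authors' deposited table. The 124-base exon had RS2 rows of -0.002 and 0.256 per the authors' deposited table, with p-values of 1 and 0.382. Its RS3 rows were -0.009, -0.001 and 0.012 per the authors' deposited table. Each of these exons thus had 1 large RS2 row that was far from a call beside rows close to 0.

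The 191-base exon (38282027 to 38282217) encodes the first part of the third loop, upstream of the alternative IIIb and IIIc exons that set ligand choice. Its difference was 0.001 for both libraries per the authors' deposited table, at an FDR of 1. The 111-base exon (38274824 to 38274934) encodes part of the kinase and differed by -0.008 in RS2 and -0.003 in RS3 per the authors' deposited table, again at an FDR of 1. The IIIb and IIIc exons were not analysed here.

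Seen over the whole gene, the median difference was -0.0005 over the 18 RS2 rows and 0 over the 19 RS3 rows, against 0 and -0.001 over all events. Of the 17 uncalled RS2 rows, 10 were at most 0.01 in size and 3 were at least 0.1. Of the 18 uncalled RS3 rows, 12 were at most 0.01 and 2 were at least 0.1. All 17 uncalled RS2 rows had an FDR of 1, and their smallest p-value was 0.0746. In RS3 the smallest uncalled p-value was 0.0584. A p-value that misses the threshold does not show that the libraries were alike.

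**Figure D2:**
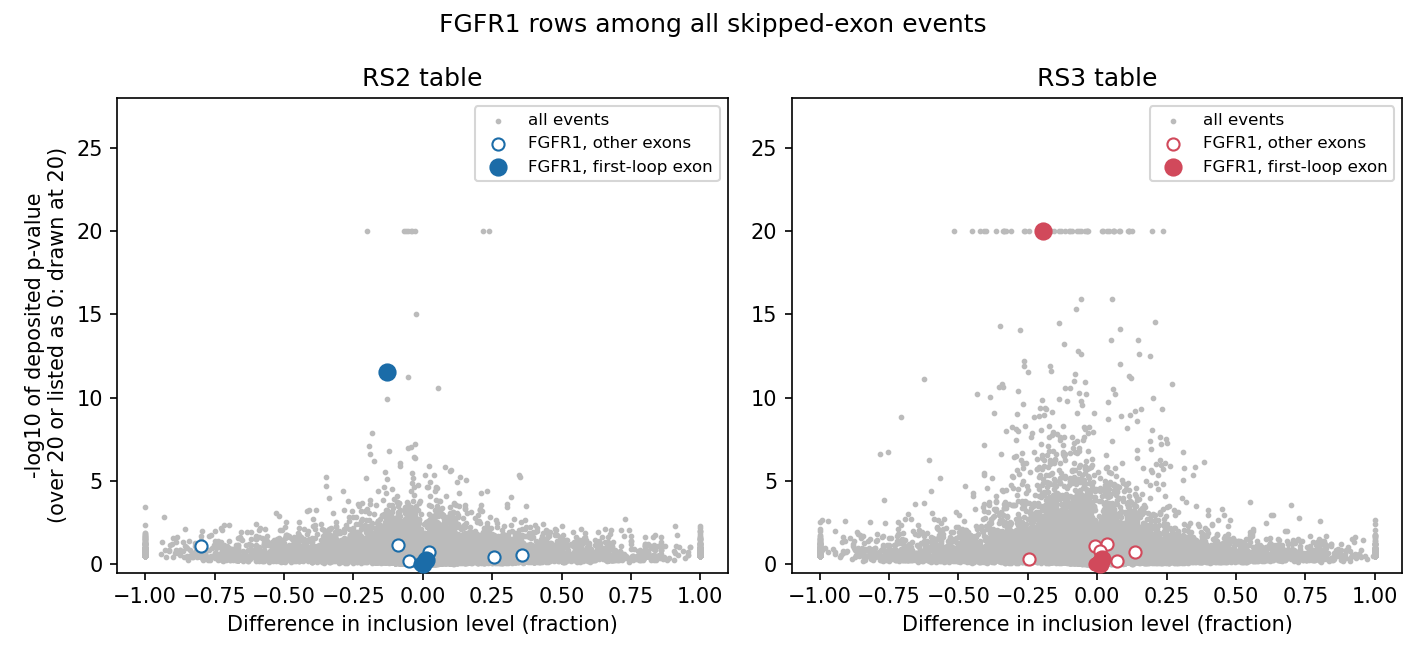
Each event of the RS2 table (left) and the RS3 table (right) by its difference in inclusion level (x axis, fraction) and the -log10 of its deposited p-value (y axis), with values over 20 and p-values listed as 0 drawn at 20. Grey points are all events, open circles other FGFR1 exons and filled circles the rows of the first-loop exon. In each panel 1 filled circle stands high, at -0.128 or -0.196, and the other 2 lie near the origin.

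The RS3 difference of the first-loop exon was 0.068 more negative than the RS2 difference. This gap was not tested, because the tables compare each library with the comparator and not with each other. Both values also share that comparator, so they are not independent measurements. As sizes, 7.87% of all RS2 events had a difference at or below -0.128 and 6.68% of all RS3 events one at or below -0.196. Few of these were called, 16 of 3203 in RS2 and 159 of 2839 in RS3.

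In length the exon was among the longer ones, since 6.78% of RS2 events and 6.79% of RS3 events were at least as long. Exons of at least 200 bases with a length in multiples of 3 made up 2341 events in RS2, of which 7 were called (0.299%), 6 of them lower. In RS3 there were 2451 such events, of which 21 were called (0.857%), 15 of them lower. The corresponding shares over all events were 0.0712% and 0.967%, and no test was made of the contrast. Both the 7 and the 21 include the called FGFR1 row, on which the gene was selected, so nothing is read from these shares. Of 37 RS2 events and 32 RS3 events with exactly its length, the called row of FGFR1 was the only one called in each table.

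The other FGF receptor genes hold an exon of nearly the same length at the same place in the coding sequence. By length in GENCODE, the second coding exon of FGFR2 is as long as the FGFR1 exon, that of FGFR3 has 270 bases and that of FGFR4 has 264, and it encodes the first loop in each receptor. None of these exons was called. The FGFR2 exon (chromosome 10, 123324952 to 123325218) differed by 0.164 in RS2 at an FDR of 1, and by 0.507 in RS3 at an FDR of 0.609, per the authors' deposited table. Its sign was thus opposite to that of the called FGFR1 row in both libraries. The FGFR3 exon (chromosome 4, 1800981 to 1801250) differed by -0.026 in RS2 per the authors' deposited table, at an FDR of 1. The FGFR4 exon (chromosome 5, 176517391 to 176517654) differed by -0.183 in RS3 per the authors' deposited table, at an FDR of 0.925. The differences between the receptor genes were not tested.

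**Figure D3:**
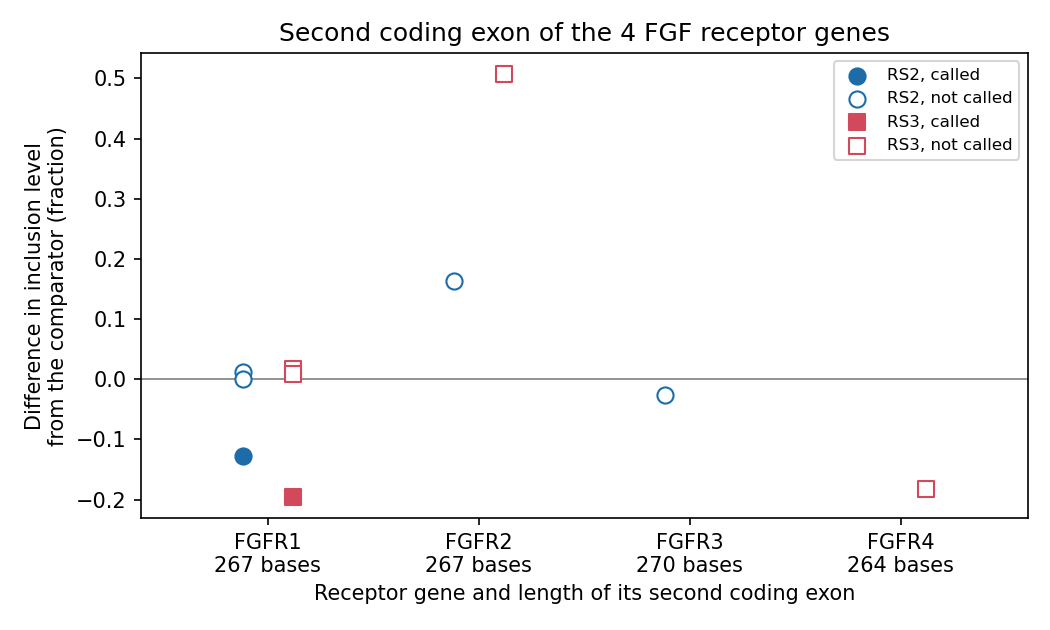
Difference in inclusion level from the comparator (y axis, fraction) of the second coding exon in 4 FGF receptor genes (x axis, with exon length in bases), 1 symbol per row, circles for RS2 and squares for RS3. Only FGFR1 has filled, called symbols, at -0.128 and -0.196, while the FGFR2 symbols lie above 0 at 0.164 and 0.507.

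The remaining FGF receptor rows were 2 exons of FGFR3 in RS2, between -0.011 and 0.006, and 3 FGFR3 exons in RS3, between -0.039 and 0.015, per the authors' deposited table. FGFR4 had a further 3 exons in RS3, between -0.09 and -0.028 per the authors' deposited table. The lowest FDR among all these rows was 0.776 per the authors' deposited table.

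Genes that act with FGFR1 were read from a list of 79 genes of the FGF pathway. In RS2, 51 of them had a tested event and only FGFR1 was called (1.96% of genes, against 0.238% of all genes). That share comes wholly from the gene selected for its call, and 0 of the other 50 were called. In RS3, 49 were tested and 2 were called, FGFR1 and SULF1, both lower (4.08%, against 3.05% of all genes). Without FGFR1 the RS3 count was 1 of 48 (2.08%). The median difference over the list was 0.002 in RS2 and 0.001 in RS3, against 0 and -0.001 over all events.

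Among the ligands, FGF1, FGF2 and FGF5 were tested in RS2, and FGF1 and FGF5 in RS3. The largest ligand difference was that of a 104-base exon of FGF5, 0.247 in RS2 at an FDR of 0.627 per the authors' deposited table. The row of smallest p-value for the same gene in RS3 was 0.088 per the authors' deposited table, at an FDR of 1. Another row of the same FGF5 exon stood at 0.015 in RS2 and at -0.037 in RS3 per the authors' deposited table.

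Heparan sulfate, the sugar chain that FGF needs to bind its receptor, involves carrier proteins and modifying enzymes. The carriers, syndecans and glypicans among them, gave 25 rows in each table and 0 calls. Over all events 0.0712% were called in RS2 and 0.967% in RS3, so 0 calls among so few rows are not read as a result. Of the enzymes, SULF1 removes sulfate groups from the chain outside the cell. Its 143-base exon fell by 0.515 in RS3 per the authors' deposited table, with an FDR listed as 0. The same SULF1 exon differed by 0.015 in RS2 per the authors' deposited table, at an FDR of 1. EXT1, EXT2, NDST1, HS2ST1 and SULF2, which build or edit the chain, had no call.

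Inside the cell, all 11 adaptors and docking proteins were tested, with 0 calls among 34 RS2 and 35 RS3 rows. FRS2, the main docking protein of FGF receptors, differed by 0.014 in RS2 and 0.051 in RS3 per the authors' deposited table at its row of smallest p-value, a 96-base exon in both. The FDRs of these FRS2 rows per the authors' deposited table were 1 and 0.449. PTPN11, the phosphatase SHP2, had a 114-base exon with -0.128 in RS3 and an FDR of 0.33 per the authors' deposited table. The RAS and MAP kinase genes had 27 rows in RS2 and 21 in RS3, and the feedback inhibitors 13 and 15, all without a call. With 0.0712% of all RS2 events and 0.967% of all RS3 events called, the lack of calls in these small groups is not read as a result. Among the inhibitors the farthest value was -0.657 for a 62-base exon of SPRY4 in RS3, at an FDR of 0.351 per the authors' deposited table. The other SPRY4 row in RS3 stood at 0.031, and its 1 row in RS2, a 51-base exon, at 0.011, per the authors' deposited table.

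Splicing factors were read from a list of 38 genes that includes regulators known to act on FGF receptor exons. In RS2, 33 were tested and 0 called, against 0.238% of all genes. In RS3, 33 were tested and 3 called, all lower (9.09%, against 3.05% of all genes). By event, 3 of 164 rows were called in RS3, against 0.967% of all events, so little is read from the share per gene. Most called RS3 events were lower over the whole table too, 313 of 411, and the list was not tested against it. HNRNPA2B1, an RNA-binding hnRNP, fell by 0.407 at a 136-base exon in RS3 per the authors' deposited table. The muscleblind proteins MBNL2 and MBNL1 differed by -0.2 and -0.199 in RS3 and were called, at exons of 95 and 54 bases per the authors' deposited table. In RS2 the same exons differed by -0.075, -0.132 and -0.097 per the authors' deposited table, at FDRs of 1, 0.564 and 0.799.

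PTBP1, the polypyrimidine tract binding protein known to repress the first-loop exon of FGFR1, was not called. At its row of smallest p-value, a 31-base exon in both tables, it differed by 0.023 in RS2 and 0.03 in RS3 per the authors' deposited table. The FDRs of these PTBP1 rows per the authors' deposited table were 1 and 0.738. SRSF6, an SR protein, differed by -0.014 and 0.009 at a 268-base exon per the authors' deposited table, each at an FDR of 1. These values describe exons and give no amount of any splicing factor.

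Receptor tyrosine kinases as a class were tested for 33 genes in RS2 and 34 in RS3, of a list of 53. FGFR1 was the only gene called in RS2 (3.03% of the genes tested, against 0.238% of all genes), and 0 of the other 32 were called. In RS3 a second gene was called, AXL (5.88% with FGFR1 and 3.03% without it, against 3.05% of all genes). AXL is a receptor for GAS6, and its 27-base exon fell by 0.107 at an FDR of 0.047 per the authors' deposited table. The AXL exon differed by -0.006 in RS2 per the authors' deposited table. The 36-base exon of the insulin receptor gene INSR, a well-known extracellular switch, differed by 0.045 in RS2 and -0.178 in RS3 per the authors' deposited table, each at an FDR of 1.

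The tables hold no expression level, so the cell type could not be checked, and only the marker genes with testable exons can be listed. Of 16 fibroblast markers, 15 had rows in each table, whereas 5 and 6 of 12 epithelial and 4 and 6 of 11 pluripotency markers did. The lists were not matched for exon number, which limits the rows a gene can have. These counts are therefore not read as cell type. The called markers were 2 fibroblast genes: FN1, fibronectin, in both tables, and COL6A3, a type VI collagen chain, in RS3. The 264-base COL6A3 exon differed by -0.102 in its called RS3 row and -0.008 in another, per the authors' deposited table. Its RS2 rows were 0.01 and 0.001 per the authors' deposited table. Called genes made up 6.67% of the tested fibroblast markers in RS2 and 13.3% in RS3, against 0.238% and 3.05% of all genes. By event, 1 of 104 fibroblast marker rows was called in RS2 and 2 of 128 in RS3. Over all events the shares were 0.0712% and 0.967%. FN1 alone had 21 and 28 rows, so nothing is read from the share per gene. The 4 to 6 tested genes of each other marker list are too few to set beside it. The epithelial splicing regulators ESRP1 and ESRP2, which set the IIIb form of FGFR2 in epithelia, had rows but no call, and their part in the FGFR1 result was not tested.

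Exons most like the first-loop FGFR1 exon were sought among the 11 exons, FGFR1 included, whose row of smallest p-value was called in both tables. Likeness was the larger of the gaps to the RS2 and RS3 differences of FGFR1, so it rests on 2 comparisons that share the comparator. The closest was a 57-base exon of ECHDC2, a mitochondrial enoyl-CoA hydratase-like protein, with a gap of 0.013. It differed by -0.141 in RS2 and -0.19 in RS3 per the authors' deposited table. Another RS3 row of the same ECHDC2 exon, not called, stood at -0.009 per the authors' deposited table. Next came a 273-base exon of FN1 with a gap of 0.073, at -0.201 and -0.194 per the authors' deposited table. The third was a 1578-base form of the same ECHDC2 region with a gap of 0.075, at -0.203 and -0.266 per the authors' deposited table. The ECHDC2 forms share a start coordinate (chromosome 1, 53370706) and so share sequence.

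**Figure D4:**
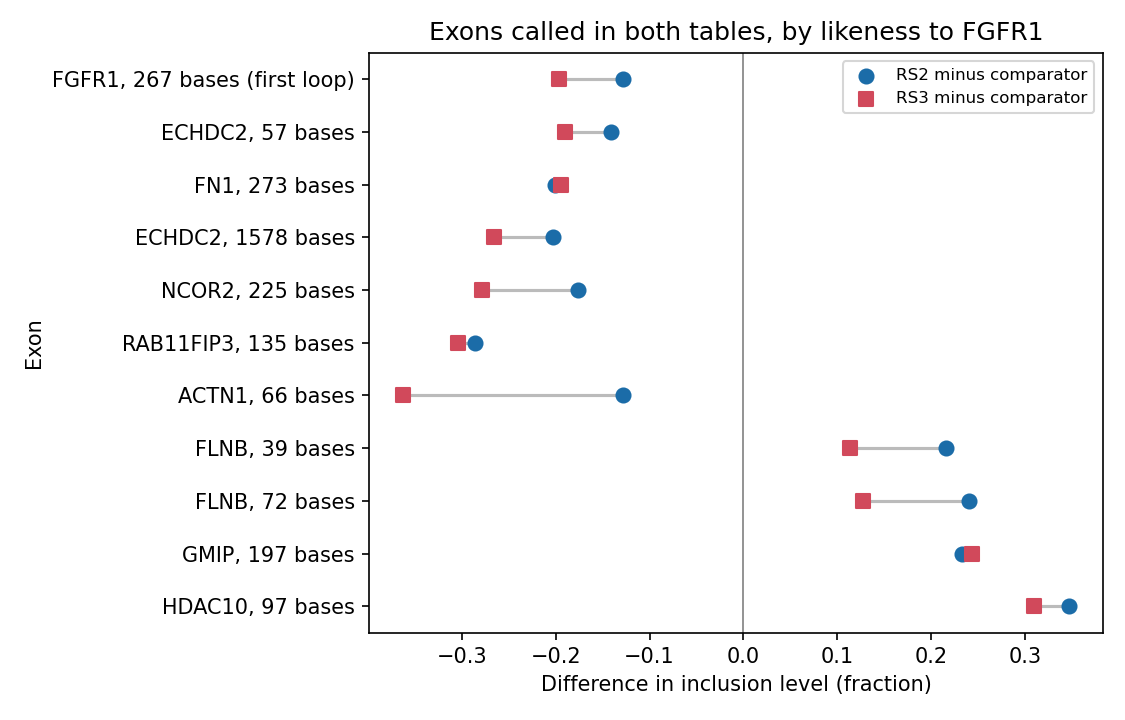
Difference in inclusion level (x axis, fraction) in RS2 (circles) and RS3 (squares) for the 11 exons called in both tables, ordered from the top by likeness to the FGFR1 exon, with exon length in bases. FGFR1 stands at -0.128 and -0.196, next to the 57-base ECHDC2 exon at -0.141 and -0.19.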

How the data were processed

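TruSeq libraries were prepared from mRNA of Trizol-extracted, DNase-treated RNA, per the labels' protocols. STAR, FastQC and the build hg19 stand in the submitters' processing notes, with the event caller not given in the sources used here. Per the file headers, the authors deposited 3 values per event: the p-value, its FDR and a score for the difference in inclusion level (from -1 to 1). No label ties the 4 columns of inclusion level per library to a sample, and no level from them is reported. The level from which an exon's inclusion differed is thus not given here. A single look at these columns served to read the sign, taken as the first library minus the comparator. Every direction stated above rests on that reading.

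Rows were called at an FDR below 0.05 with a difference of 0.1 or more. No test was added to those the authors deposited. Background shares were counted over each whole table with Python 3.11.15 and pandas 2.3.3, and the counting and ranking were tested on simulated data. Exons were matched to GENCODE release 29 by length and spacing, which placed all 12 FGFR1 exons, and no coordinate was converted. Named were all FGFR1 rows, the other FGF receptors, the called genes of 6 lists and the 3 exons most like FGFR1. FGF5, FRS2, PTPN11, SPRY4, PTBP1, SRSF6 and INSR were named for their role or value after their values were seen. The members and lists were chosen with earlier results of these data known.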

Additional observations from a re-analysis of the deposited data

Results flagged for a closer look

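Inclusion of 2 FGFR1 exons far upstream of the first-loop exon lay on opposite sides of the comparator in RS2 and RS3, each exon having a single row in each table. The 138-base exon stood at -0.089 in RS2 and 0.135 in RS3 per the authors' deposited table. The 160-base exon stood at -0.05 and 0.071 per the authors' deposited table. None of these rows was called, and RS2 was not tested against RS3.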

How the results depend on the processing

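The FGFR1 call depended on the minimum difference. Under the stricter rule, an FDR below 0.01 with a difference of 0.2 or more, 0 FGFR1 rows were called in RS2 and 0 in RS3. The gene lists then held 0 called FGF pathway genes in RS2 and 1 in RS3, 0 receptor tyrosine kinases in either table, and 0 fibroblast markers in RS3. The fibroblast list kept its 1 called gene in RS2, and the splicing factor list kept 2 of 3 in RS3. With no minimum difference, with an FDR under 0.1, with the p-values adjusted anew by Benjamini-Hochberg or with exons counted once, the count stayed at 1 FGFR1 call in each table. The value of the first-loop exon depended on the row. The row with the largest difference was the called one, while the median over its rows, and the row with the largest p-value, gave 0 in RS2 and 0.009 in RS3, the latter of opposite sign. No paired analysis was possible because each group had 1 library and the columns carry no replicate number. Depth is unknown, so no interval could be given.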
